A study of Mus musculus with 48 samples.

Results

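The values below are those of 42 imprinted genes and overlapping partners among the 48440 genes of a read count table from the mouse amygdala. The genes were taken by symbol from a fixed list of known imprinted loci and of the genes that lie against them, such as Ube3a with Snhg14, Copg2 with Mest and Igf2r with Airn. The list names loci, not measured levels, and was drawn up with earlier results of these data known. All 42 were in the table, 19 of them on chromosome 7. Imprinted genes are transcribed mainly from the allele of 1 parent, which is fixed by DNA methylation laid down in the germ line. They lie in clusters, and in several clusters a long non-coding RNA on the opposite strand silences its neighbours on the same chromosome. In the brain many of them act on growth, maternal care and feeding.

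RNA was measured in 48 male C57BL/6 mice (of a line backcrossed on C57BL/6N) aged 4 months, with 8 mice in each of 6 groups. All were offspring of Tph2+/- parents and carried Tph2+/+, Tph2+/- or Tph2-/-, where Tph2 encodes the enzyme that limits serotonin synthesis in the brain. Litters had either been separated from the dam for 3 h per day from postnatal day 2 to 15 (maternal separation, MS) or been reared under standard conditions (control, C), so that each genotype had a C and an MS group, written for example as Tph2-/- MS. The mice had been housed singly and tested for behavior before dissection, and the labels do not tie them to litters, so littermates within a group cannot be named. The deletion is constitutive, and both amygdalae of a mouse were pooled. The data hold no information on the parental allele, and in whole tissue fewer cells of a type cannot be told apart from less RNA per cell.

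The depth on genes was low. A library held between 609489 and 6296568 counts on genes, with a median of 738490, while a median of 97.5% of the uniquely placed read pairs lay on no gene of the table. In the scaled CPM (counts relative to the library total) used below, a count of 3 corresponded to 3.15 to 7.91 CPM with a median of 3.99, which limits what a count of 0 can show and covers counting error only. In 4 libraries Gm42418, a gene with similarity to ribosomal RNA, took more than 500000 counts. Tph2 had at most 1 count in any library and therefore did not check the genotypes. Genes that define brain cells were low as well, with a mean of 8.5 counts for the neuronal Snap25, 14.9 for Syt1 and 8 for the myelin gene Mbp, and with 135 for Csf1r of microglia.

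The libraries were made with a kit that keeps the strand, and the strand setting of the counting is not given in the sources used here. A count on a gene may therefore reflect its own transcripts or, had the opposite strand been counted, transcripts that run against it. Which of both holds was not tested. Both readings are spelled out below for several loci, and they apply equally to every other count given. Of the 42 genes, 18 had exons that lie opposite to exons of another gene, 6 had exons opposite to introns only and 18 had no gene opposite to their exons. Of these classes, 8, 0 and 2 genes reached a mean of 10 counts. The median level was 0.477 counts per kb of exon in the first class, 0.371 in the second and 0.159 in the third.

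Over all classes, 10 of 42 imprinted genes (23.8%) had a mean of at least 10 counts, against 11.7% of the 48058 genes that could be placed on the genome. Another 15 had a mean between 1 and 10 counts, and 17 were below 1. No read was counted in any mouse on Dlk1, Snurf, Mkrn3 and Slc22a18. Ube3a, a ubiquitin ligase whose maternal copy is lost in Angelman syndrome, held 64.7% of the 302920 counts on all 42 genes. Together with Copg2, Snhg14 and Mest it held 93.4%. Per kb of exon the order was Ube3a with 198 counts, Copg2 with 157, Mest with 54.1, Nnat with 39.5, Snhg14 with 30.5, Kcnq1 with 18.04 and Inpp5f with 12.4.

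Imprinting is tied to CG-rich promoters, at many of which the zinc finger protein ZFP57 binds the methylated hexamer TGCCGC. Promoter windows of 300 bases (250 before and 50 after a start) from RefSeq on GRCm38.p6 were found for 31 of the 42 genes, in 46 windows. The hexamer was searched on both strands, where it reads TGCCGC or GCGGCA. It was present in 12 of the 46 windows (26.1%) and in 11.6% of all 32851 windows. By gene it was held by 11 of 31 (35.5%), with Snurf and Snrpn sharing a window, against 13.1% of all genes with a window. The count of windows holds the window of Snrpn and Snurf once for each gene, and overlapping Mest windows that start at chr6:30737800 and chr6:30737803. The imprinted windows had a median of 13 CG dinucleotides and all windows one of 7. The hexamer itself contains a CG, and the shares were not matched for CG content. Windows of 3 genes are shown with the hexamer in capitals, picked among windows with a match at the loci described next. They belong to Snrpn, Mest and Nnat. Snrpn encodes a splicing protein, and the Snhg14 RNA extends from its region toward Ube3a. The Mest RNA runs into Copg2, and Nnat lies inside Blcap. At these loci the Copg2 window held a match as well. The windows of Ube3a, Snhg14, Kcnq1ot1, Gnas, Peg3, Usp29, Igf2r, Airn and Blcap held none. Nor did the other windows of Snrpn and a further window of Mest.
Snrpn promoter, chr7:60005150-60005449, minus strand: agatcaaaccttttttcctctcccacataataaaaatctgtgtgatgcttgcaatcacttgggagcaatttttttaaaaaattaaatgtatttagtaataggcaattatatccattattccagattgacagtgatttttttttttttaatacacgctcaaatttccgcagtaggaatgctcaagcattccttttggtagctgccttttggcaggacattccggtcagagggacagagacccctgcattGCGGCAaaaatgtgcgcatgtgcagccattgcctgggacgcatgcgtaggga
Mest promoter, chr6:30737803-30738102, plus strand: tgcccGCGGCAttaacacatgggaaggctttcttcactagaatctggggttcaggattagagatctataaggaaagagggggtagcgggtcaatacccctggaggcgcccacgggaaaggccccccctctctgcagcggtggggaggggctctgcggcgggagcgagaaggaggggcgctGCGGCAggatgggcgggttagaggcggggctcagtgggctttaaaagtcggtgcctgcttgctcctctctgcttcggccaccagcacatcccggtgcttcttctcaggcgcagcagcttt
Nnat promoter, chr2:157559828-157560127, plus strand: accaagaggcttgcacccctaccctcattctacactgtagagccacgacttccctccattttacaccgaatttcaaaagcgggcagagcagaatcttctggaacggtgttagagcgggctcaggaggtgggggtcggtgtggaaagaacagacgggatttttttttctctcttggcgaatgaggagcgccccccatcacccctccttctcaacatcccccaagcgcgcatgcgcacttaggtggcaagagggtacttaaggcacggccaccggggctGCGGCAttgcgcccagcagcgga
All matches in the windows shown read GCGGCA on the strand of the gene, 2 in Mest and 1 in each of the others. A match describes these letters only. Methylation was not analysed here.

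Ube3a (ENSMUSG00000025326, chr7:59228750-59311536, plus strand) had a mean of 4081 counts per mouse. Snhg14 (ENSMUSG00000100826, chr7:59307924-59975759, minus strand), the host of small nucleolar RNAs whose long form is the Ube3a antisense transcript of neurons, had 796 counts and shares 1803 exonic bases with Ube3a. On the same strand as Snhg14, 2 further genes overlap exons of Ube3a, namely 9330162G02Rik with 1027 counts and Gm44560 with 545 counts, which per kb was close to Ube3a (175 against 198 counts). Ube3a exceeded each of these 3 genes in count in all 48 mice. Per kb, Gm44560 was above Ube3a in 11 of 48 mice. If the counts follow the strand of the gene, the larger value belongs to the Ube3a messenger. If they follow the opposite strand, it belongs to the antisense transcript, and the values of the 3 other genes to transcripts in the direction of Ube3a.

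Over all 25 overlaps of exons between a gene of the list and an opposite gene outside it, the opposite gene had the higher mean count in 14 and the lower in 11. The opposite genes named here are those with a mean of at least 10 counts, of which 10 of 12 were higher, a share that this limit favors, whereas 4 of the 13 below it were. Gnas, the stimulatory G protein subunit, had 9.21 counts on average, whereas Gm20721, which shares 1469 exonic bases with it on the opposite strand, had 10526. Zim3, itself an imprinted gene and annotated as antisense, had 1078 counts opposite to Usp29, which had 3.71 (2582 shared bases). Gm26906 had 131 counts opposite to Meg3, the maternally expressed non-coding RNA, which had 0.708 (1228 shared bases). Gm44732 had 55.5 counts opposite to Cdkn1c, a growth inhibitor, with 0.521 counts, and Gm18908 had 54.4 opposite to Snrpn with 1.21. Gm23134, annotated as a miRNA gene of 87 bases, had 1611 counts within the Nnat exons, on which 72.3 were counted. In each of these 6 pairs the opposite gene had the higher count in 48 of 48 mice. With the opposite reading these large values would describe transcripts of Gnas, Usp29, Meg3, Cdkn1c, Snrpn and Nnat, and the small ones transcripts running against them.

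Copg2, a subunit of the COPI coat, and Mest, a hydrolase expressed from the paternal allele, end against each other on chromosome 6 and share 912 exonic bases. Copg2 had 804 counts and Mest 213, and Copg2 was higher in 48 of 48 mice, also per kb. With the opposite reading the larger value would describe transcripts that run in the direction of Mest. Kcnq1, a potassium channel subunit, had 73.9 counts. Kcnq1ot1 (chr7:143203458-143296549), the paternal RNA that silences this cluster, had 26.5 counts on its single exon of 93092 bases, or 0.284 per kb. Inside this exon, 4 genes of the opposite strand annotated as misc_RNA (Gm27395, Gm27389, Gm27803 and Gm27539) cover 998 bases and together had more counts, 7.10 times those of Kcnq1ot1 over all mice and higher in 48 of 48 mice. Under the opposite reading these 4 would be stretches of Kcnq1ot1 itself. Nespas, the antisense RNA that starts near the Gnas promoters, had 29.9 counts, more than Gnas in 45 of 48 mice. With the opposite reading the Nespas value would describe transcripts in the direction of Gnas, and the Gnas value transcripts against it.

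**Figure D1:**
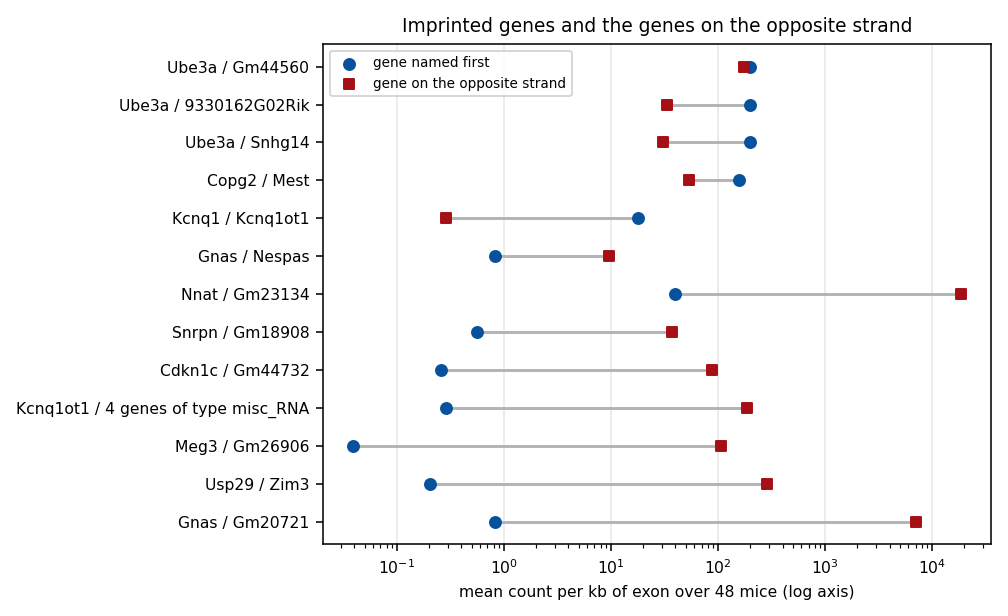
Mean count per kb of exon over 48 mice (log axis) of the gene named first (circles) and of the gene on the opposite strand (squares) for 13 overlaps. Squares lie right of circles in the lower 8 rows, by 11.6-fold for Nespas against Gnas and by 8616-fold for Gm20721 against Gnas, and left of them for Ube3a, Copg2 and Kcnq1.

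Igf2r, which clears growth factor IGF2, and Airn, the RNA that silences it, do not share exonic bases in the annotation, and had 6.04 and 5.44 counts. Blcap had 5.65 counts and spans the whole of Nnat on the other strand. Peg3 and Usp29 are transcribed away from each other from overlapping promoter windows, with 35.02 and 3.71 counts. Of the genes with no annotated gene opposite to their exons, Peg3, a zinc finger gene linked to maternal behavior, and Inpp5f, a phosphoinositide phosphatase with 103.4 counts, were the only ones with at least 10 counts. The remaining genes of the list, with or without a gene opposite, were below 10 counts. Impact, a regulator of translation, had 8.46 counts and Ndn, a neuronal growth suppressor, 7.54. The small nucleolar RNA host Rian had 7.44 and Zdbf2 4.98. Grb10 (2.35), Plagl1 (2.33), Kcnk9 (2.27), Peg13 (1.98), Mirg (1.65) and Snrpn (1.21) had between 1 and 3 counts. The means of Peg10, Meg3, Rtl1, Igf2, Cdkn1c, Sgce, Ddc, Trappc9, Magel2, Zim1, H19, Phlda2 and Peg12 were under 1 count, from 0.896 for Peg10 to 0.0208 for Peg12.

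Genes were tested when their counts were high enough for the group size of 8 (filterByExpr of edgeR), which 6781 genes passed. Of the 42 imprinted genes 14 did, and the other 28 were not tested. All following levels are CPM after TMM scaling, which do not correct for gene length. A gene was called a DEG at a nominal p below 0.01 with an absolute lg2FC above 0.2 in edgeR's quasi-likelihood test, and for any difference between the 6 groups at a nominal p below 0.01.

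The Tph2 by MS interactions ask whether MS acted differently in the other genotypes than in Tph2+/+. For GE1, the lg2FC of MS against C in Tph2+/- minus that in Tph2+/+, 0 of 14 imprinted genes were DEGs, against 2.96 percent of all tested genes. Below a nominal p of 0.05 there was 1, Nnat, against 7.95 percent of all genes. For GE2, the same with Tph2-/-, 0 of 14 were DEGs, against 0.516 percent, and 1 (Peg3) was below 0.05, against 3.64 percent. DESeq2 called 0 in both. For any difference between the 6 groups 0 of 14 were called, against 2.3 percent, with 1 (Nespas) below 0.05, against 7.05 percent. DESeq2 called 1 of 38 here, Peg13, which had too few counts for the edgeR test, against 0.667 percent of the 32234 genes it was run on.

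In Tph2+/+, MS against C gave 0 DEGs of 14 imprinted genes (2.67 percent of all genes), with 1 below a nominal p of 0.05 (7.68 percent). In Tph2+/- the numbers were 0 (0.678 percent) and 0 (3.95 percent), and in Tph2-/- 0 (0.811 percent) and 2 (5.13 percent). Tph2-/- against Tph2+/+ under C gave 0 DEGs (0.619 percent), with 1 below 0.05 (3.88 percent), and after MS 0 (2.06 percent), with 1 below 0.05 (7.4 percent). Tph2+/- against Tph2+/+ under C gave 0 DEGs (2.14 percent), with 1 below 0.05 (6.9 percent). After MS this comparison gave 1 DEG, Nnat (1.24 percent), with 2 below 0.05 (5.59 percent). DESeq2 called Nnat in this last comparison and 0 imprinted genes in the other 6.

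Among the 14 imprinted genes that passed the filter, 0 had an adjusted p (Benjamini-Hochberg over all tested genes) below 0.05 in any comparison. Of all genes 0.103 percent had one for any difference between the groups, 0.0147 percent in each comparison of Tph2-/- with Tph2+/+, and 0 percent elsewhere. When all 32234 genes with at least 1 count were tested instead, 2 of 38 imprinted genes had one for any difference between the groups, as had 251 of all genes, and 1 for MS in Tph2-/-, as had 12 of all genes. The point estimates after MS lay below 0 for 12 of 14 imprinted genes in Tph2+/+ with a median lg2FC of -0.13, for 10 of 14 in Tph2+/- with -0.06 and for 12 of 14 in Tph2-/- with -0.13. The median over all tested genes was between -0.01 and 0.01 in these comparisons. Neighbouring imprinted genes are not independent, and these counts were not tested.

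**Figure D2:**
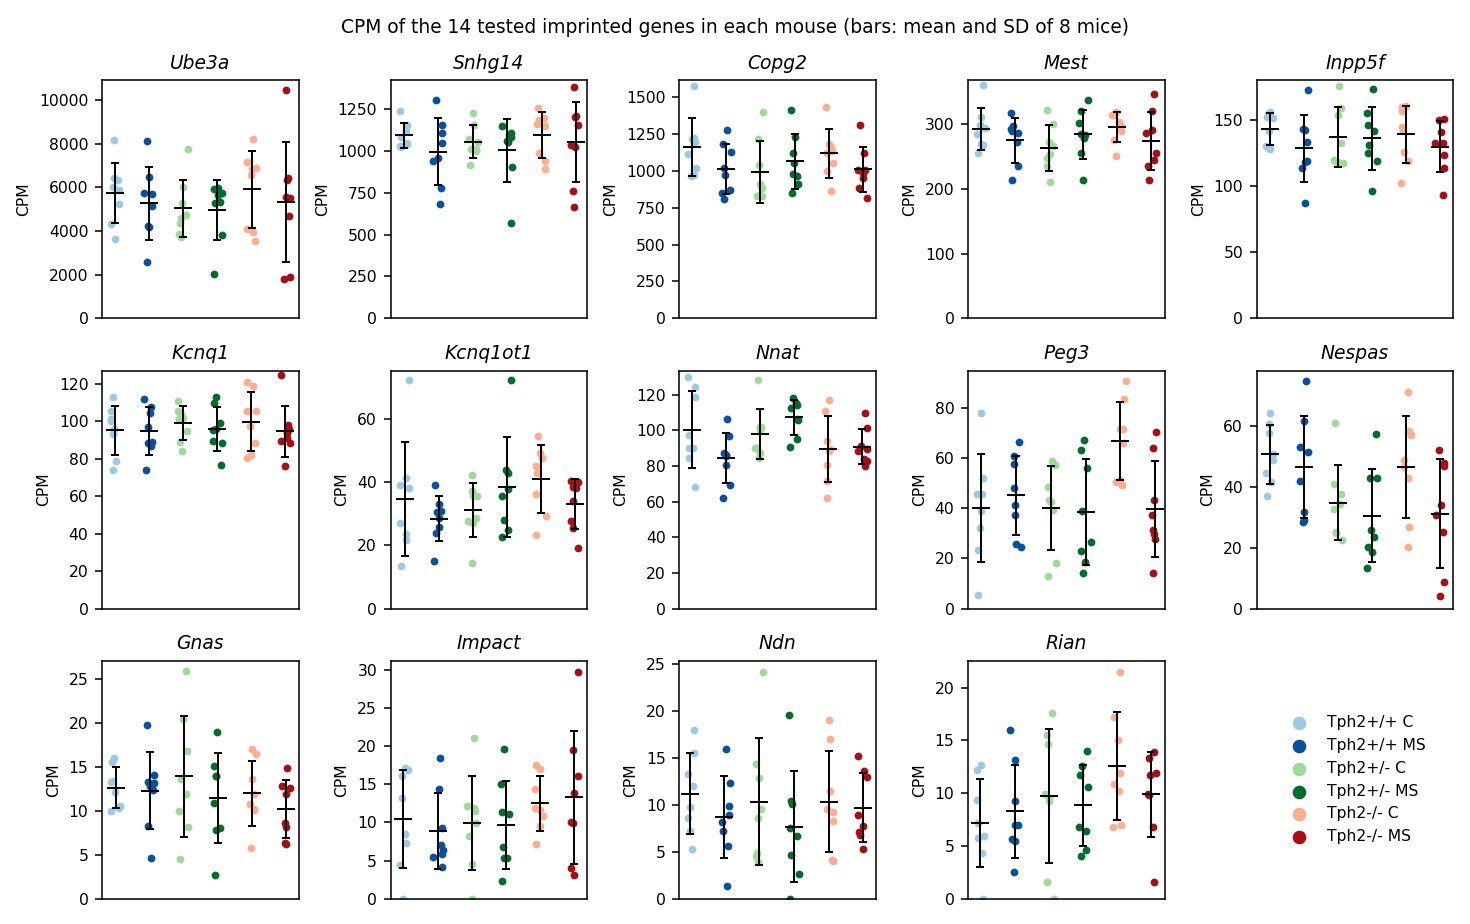
CPM of the 14 tested imprinted genes in each of 48 mice, with a panel per gene, a color per group and bars for the mean and SD of 8 mice. The groups overlap in every panel, and Nnat has its highest group mean in Tph2+/- MS (90.7 to 118 CPM) and Peg3 in Tph2-/- C (49.3 to 90.6 CPM).

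Nnat (ENSMUSG00000067786, chr2:157560078-157562522, plus strand) encodes neuronatin, a small membrane protein of developing neurons and of metabolic control, expressed from the paternal allele. In Tph2+/+ C its lowest, median and highest values were 68.1, 93.6 and 130 CPM, and in Tph2+/+ MS 62.0, 85.9 and 106.4 CPM. In Tph2+/- C they were 84.4, 95.2 and 128 CPM and in Tph2+/- MS 90.7, 109 and 118 CPM. In Tph2-/- C they were 61.8, 89.0 and 117 CPM and in Tph2-/- MS 80.2, 89.1 and 110 CPM. The mice of Tph2+/- MS were all above 90 CPM, yet their range overlapped with that of every other group. After MS, Nnat was higher in Tph2+/- (107.2 ± 9.81 CPM, SD, n = 8) than in Tph2+/+ (84.3 ± 14.1), with a lg2FC of 0.35 ± 0.12 (SE, 95% interval from 0.12 to 0.57). It met the nominal threshold of a DEG and did not pass the adjustment (adjusted p = 0.711 in edgeR). Under C the same difference was -0.04 ± 0.12 (adjusted p = 0.980). MS against C gave a lg2FC of -0.24 ± 0.12 in Tph2+/+ (adjusted p = 0.626) and of 0.14 ± 0.11 in Tph2+/- (adjusted p = 0.9999). GE1 was 0.38 ± 0.16 (adjusted p = 0.474). The difference after MS, the effect of MS in Tph2+/+ and GE1 share the Tph2+/+ MS mice. The strand of the transcript behind the Nnat value is open to both readings given above, since Gm23134 lies within its exons on the other strand. With the opposite reading, Nnat transcripts would be counted on Gm23134, which was not a DEG. After MS, Gm23134 had 1944 ± 298 CPM in Tph2+/+, 2164 ± 518 in Tph2+/- and 2268 ± 521 in Tph2-/-. Under C its group means lay between 2009 and 2237 CPM. Across mice, Nnat had r = -0.33 and rho = -0.42 with the choroid plexus markers (adjusted permutation p = 0.0709 and 0.0127). Of the counts on these 4 markers, 95.9% lay on the single gene Kcnj13, while Ttr, Kl and Folr1 had means of 3.06, 0.417 and 0.0417 counts. The sum thus stands for Kcnj13 rather than for a cell type. It was lowest in Tph2+/- MS, with 99.8 ± 27.0 CPM against group means of 108 to 119 elsewhere. Its part in the difference of Nnat was not tested. For Nnat r was between -0.18 and 0.15 for the other measures compared.

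Peg3 (ENSMUSG00000002265, chr7:6703892-6730431, minus strand) has no annotated gene opposite to its exons. Its lowest, median and highest values were 5.27, 42.3 and 78.1 CPM in Tph2+/+ C and 24.3, 44.6 and 66.2 CPM in Tph2+/+ MS. They were 12.9, 42.8 and 58.8 CPM in Tph2+/- C and 13.98, 32.7 and 67.0 CPM in Tph2+/- MS. In Tph2-/- C they were 49.3, 68.6 and 90.6 CPM, and in Tph2-/- MS 13.98, 34.2 and 70.4 CPM. Tph2-/- C was thus the highest group, while its range overlapped with the others. The lg2FC of MS against C in Tph2-/- was -0.72 ± 0.28 (95% interval from -1.27 to -0.18, adjusted p = 0.881 in edgeR), and that of Tph2-/- against Tph2+/+ under C was 0.66 ± 0.28 (0.11 to 1.21, adjusted p = 0.999). GE2 was -0.82 ± 0.41 (-1.62 to -0.03, adjusted p = 0.99998). None of these was a DEG, and all rest on the Tph2-/- C mice. Peg3 became a DEG in all 3 when every gene with at least 1 count was tested, for MS in Tph2-/- with the replicate block, and for Tph2-/- against Tph2+/+ without the 7 control mice with the highest animal numbers. DESeq2, also run on every gene with at least 1 count, did not call Peg3 in these comparisons.

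Of 5 sums of cell markers, those of neurons, astrocytes and oligodendrocytes moved with Peg3. The summed CPM of 6 neuronal markers had a mean of 63.5 ± 15.1 in Tph2-/- C and between 38.5 and 46.3 in the other groups, and that of 4 astrocyte markers was 98.4 ± 35.5 against 66.6 to 78.2. Across the 48 mice, as deviations from the group means of log2(CPM + 1), Peg3 was related to the neuronal sum (r = 0.67, rho = 0.67, each with an adjusted permutation p of 5.14e-05) and to the astrocyte sum (r = 0.76, rho = 0.76, each with the same p, from the smallest that 100000 permutations can give). The oligodendrocyte sum was highest in Tph2-/- C as well, with 84.4 ± 11.9 CPM against group means of 65.2 to 74.03 CPM, and had r = 0.53 and rho = 0.41 with Peg3 (adjusted permutation p = 0.00052 and 0.016). The microglial sum was 250.7 CPM in Tph2-/- C and 244.9 to 260.1 elsewhere (r = 0.21, adjusted permutation p = 0.29), and the choroid plexus sum 117.2 against 99.8 to 118.6 CPM (r = 0.28, adjusted permutation p = 0.119). Slc1a2 held 72.9% of the counts of the astrocyte list. For the neuronal and astrocyte sums, without the 2 mice farthest in the marker sum, r was 0.62 and 0.70, and without the 4 libraries rich in Gm42418 it was 0.62 and 0.72. All 6 neuronal and 4 astrocyte markers had a mean of at least 1 count. The summed count of the neuronal list ranged from 29 to 78 in Tph2-/- C and from 9 to 66 in the other groups, and that of the astrocyte list from 34 to 131 and from 13 to 109. The part of these markers in the difference of Peg3 was not tested.

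Nespas (ENSMUSG00000086537, chr2:174281237-174295436, minus strand) had lowest, median and highest values of 36.9, 49.7 and 64.3 CPM in Tph2+/+ C and of 28.3, 46.7 and 74.6 CPM in Tph2+/+ MS. The values were 22.6, 33.4 and 60.8 CPM in Tph2+/- C, and 13.3, 24.6 and 57.2 CPM in Tph2+/- MS. They were 20.2, 47.7 and 71.2 CPM in Tph2-/- C and 4.08, 32.5 and 51.9 CPM in Tph2-/- MS. The 3 lower groups were both Tph2+/- groups and Tph2-/- MS, and all groups overlapped. The lg2FC against Tph2+/+ was -0.56 ± 0.28 in Tph2+/- under C (adjusted p = 0.719 in edgeR) and -0.60 ± 0.28 after MS (adjusted p = 0.857). In Tph2-/- it was -0.12 ± 0.27 under C (adjusted p = 0.999) and -0.57 ± 0.28 after MS (adjusted p = 0.664). MS against C in Tph2-/- gave -0.57 ± 0.28 (adjusted p = 0.881), and any difference between the groups had an adjusted p of 0.638. Nespas became a DEG for any difference, for MS in Tph2-/-, in Tph2-/- after MS and in Tph2+/- under both conditions when every gene with at least 1 count was tested, and for MS in Tph2-/- without the 7 control mice named above. DESeq2, also run on every gene with at least 1 count, did not call Nespas in any comparison. Nespas had r between -0.16 and 0.10 with the 6 measures of cell markers and read placement. Zim3, opposite to Usp29, had 1241 ± 427 CPM in Tph2-/- MS and 1615 ± 345 in Tph2+/+ MS (lg2FC -0.38 ± 0.15, adjusted p = 0.517). Of the 12 genes tested that lie opposite to imprinted genes, 0 were DEGs in any comparison, against the 0.516 to 2.96 percent of all tested genes per comparison given above.

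**Figure D3:**
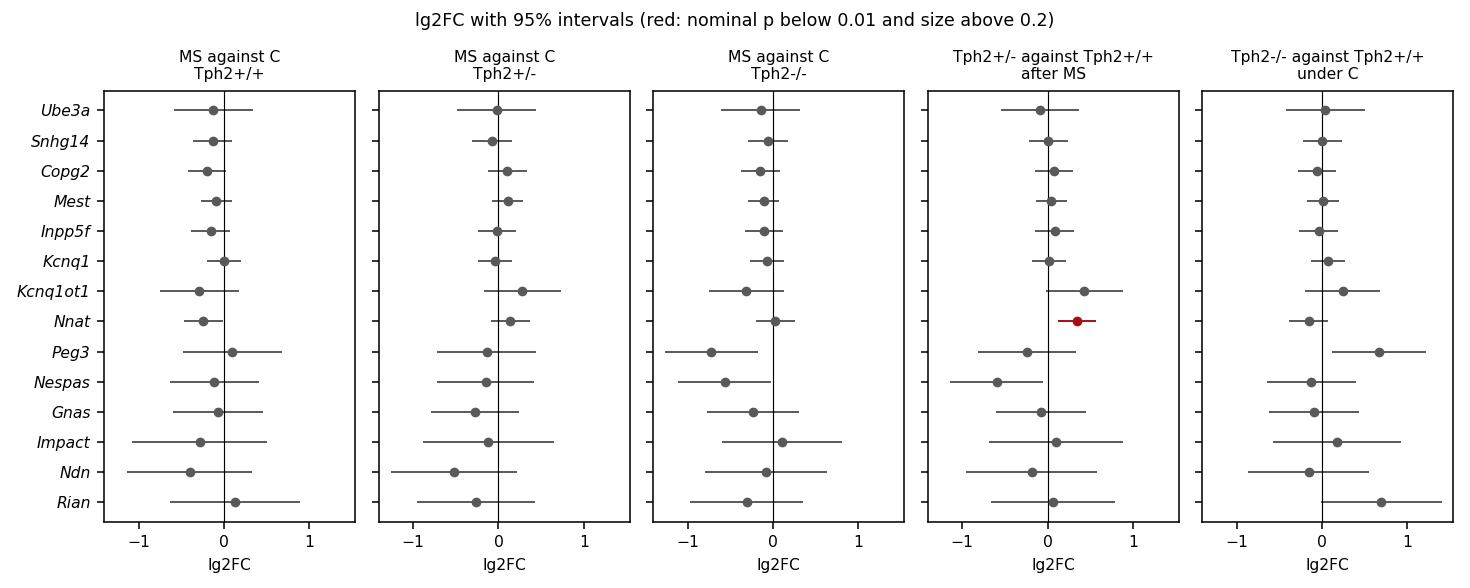
The lg2FC of the 14 tested imprinted genes in 5 comparisons, as points with 95% intervals from edgeR, where red marks a DEG. The only red point is Nnat in Tph2+/- against Tph2+/+ after MS (0.35), and among the others the intervals of Peg3 and Nespas for MS in Tph2-/-, of Nnat for MS in Tph2+/+, of Nespas in Tph2+/- after MS and of Peg3 in Tph2-/- under C exclude 0.

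For Ube3a no difference between the groups was detected (adjusted p = 0.992 in edgeR), and the groups overlapped. Its lowest, median and highest values were 3655, 5947 and 8169 CPM in Tph2+/+ C against 2592, 5426 and 8142 CPM in Tph2+/+ MS. They were 3742, 4669 and 7755 CPM in Tph2+/- C against 2020, 5479 and 5961 CPM in Tph2+/- MS. They were 3546, 6710 and 8222 CPM in Tph2-/- C against 1819, 5549 and 10486 CPM in Tph2-/- MS. The largest of its lg2FC for MS against C was -0.15 in Tph2-/-, with a 95% interval from -0.61 to 0.32. The spread was wide for a gene of this level, with a biological coefficient of variation of 33.0% against 20.9% for genes of similar abundance. Snhg14 was steadier (16.8%), with group means from 997 ± 202 CPM in Tph2+/+ MS to 1097 ± 136 in Tph2-/- C. Its lg2FC for MS against C were -0.13 in Tph2+/+, with an interval from -0.37 to 0.10, -0.08 in Tph2+/- and -0.06 in Tph2-/-.

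Ube3a and the genes opposite to it varied together from mouse to mouse. As deviations from the group means of log2(CPM + 1) in 48 mice, Ube3a had r = 0.89 and rho = 0.82 with Snhg14, r = 0.91 and rho = 0.82 with 9330162G02Rik, and r = 0.93 and rho = 0.91 with Gm44560. Each had an adjusted permutation p of 5.14e-05 over 36 relations computed. A set of 4 mice was low in Ube3a, at 1819 to 2592 CPM, namely replicates 2 and 4 of Tph2-/- MS, 8 of Tph2+/- MS and 7 of Tph2+/+ MS. Without them r was 0.79, 0.82 and 0.87, and without the 2 mice farthest from the median 0.86, 0.87 and 0.91. The relation was not limited to the locus. Of 5643 genes with a mean of at least 10 counts, 21.2% had an r with Ube3a of at least 0.5 in size, and 46 genes were as close to it as Snhg14. Ube3a was also related to the share of read pairs placed at several sites (r = -0.79, rho = -0.75, adjusted permutation p = 5.14e-05 for each, and r = -0.61 without the 4 low mice). This share was 15.1% to 15.8% in the 4 low mice, and had a median of 12.2% in the other 44, of which 1 mouse, at 16.1%, was above all of the 4. With the choroid plexus sum, which is nearly Kcnj13 alone, Ube3a had r = 0.67 and with the oligodendrocyte markers r = 0.55 (adjusted permutation p = 5.14e-05 and 0.00018), and with the neuronal markers r = 0.09. The part of these measures in the relation was not tested.

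**Figure D4:**
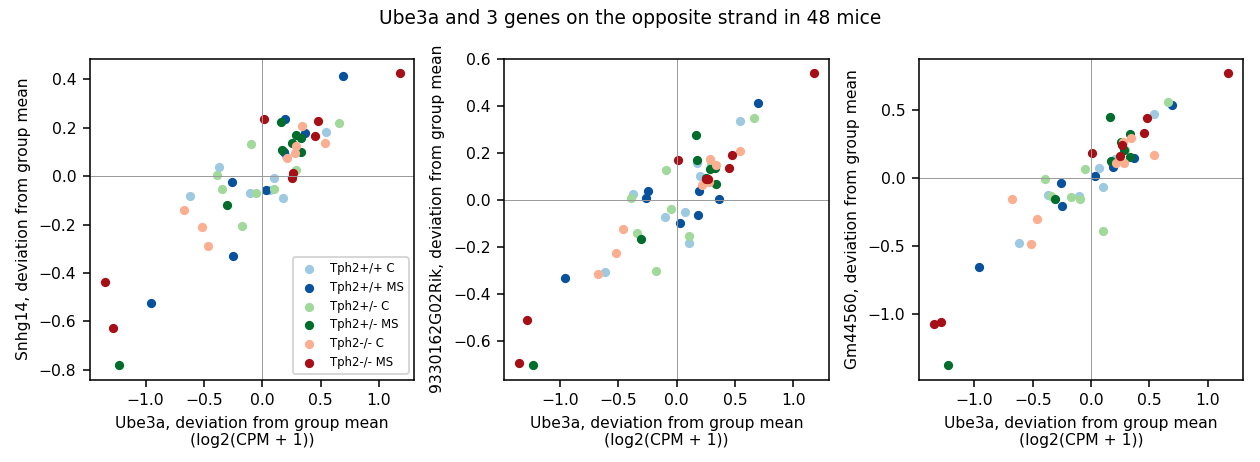
Deviation from the group mean of log2(CPM + 1) of Snhg14, 9330162G02Rik and Gm44560 (vertical axes) against that of Ube3a (horizontal axes), with a point per mouse colored by group. All 3 rise with Ube3a (r = 0.89, 0.91 and 0.93), and 4 mice, all after MS, lie at the lower left.

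Copg2 had group means from 993 ± 211 CPM in Tph2+/- C to 1162 ± 198 in Tph2+/+ C, and Mest from 263.3 ± 35.7 in Tph2+/- C to 295.02 ± 23.2 in Tph2-/- C. For Copg2 the lg2FC of Tph2+/- against Tph2+/+ under C was -0.23 ± 0.12 (adjusted p = 0.721), and it became a DEG there without the 4 libraries rich in Gm42418 and when every gene with at least 1 count was tested, which also called it for GE1. Copg2 and Mest varied together across mice less than the genes at Ube3a did (r = 0.39, rho = 0.40, adjusted permutation p = 0.0244 and 0.016), and without the 4 mice low in Ube3a r was 0.24. Of 5643 genes, 445 (7.89%) had an r with Copg2 at least as high as that of Mest. Kcnq1 varied least between mice among the 14 tested genes of the list, with group means between 94.7 and 99.9 CPM and a biological coefficient of variation of 9.43%, and its relation to Kcnq1ot1 was weak (r = -0.21, adjusted permutation p = 0.29). Kcnq1ot1 had group means from 28.4 ± 7.1 CPM in Tph2+/+ MS to 41.1 ± 10.7 in Tph2-/- C, and GE1 was 0.57 ± 0.33 (adjusted p = 0.711). Inpp5f ranged between group means of 128.9 and 143 CPM and Gnas between 10.2 and 13.9 CPM. Ndn lay between 7.70 and 11.2, Rian between 7.17 and 12.6 and Impact between 8.88 and 13.3 CPM, where a count of 3 is a large part of the value.

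The share of the counts of an opposite-strand pair that fell on the first gene does not depend on library size. The pairs were tested in 5 comparisons, where 7 of 10 pairs had a mean of at least 10 counts. Ube3a held between 81.2 ± 6.08% (SD, n = 8) of the counts on Ube3a and Snhg14 in Tph2-/- MS and 83.7 ± 3.01% in Tph2-/- C. Copg2 held 78.5 ± 2.13% to 79.6 ± 2.89% of those on Copg2 and Mest. Kcnq1 held 70.9% to 76.9% of those on Kcnq1 and Kcnq1ot1, and Igf2r 44.1% to 57.1% of those on Igf2r and Airn. Gnas held 20.3% to 30.8% of those on Gnas and Nespas, and Blcap 5.90% to 7.89% of those on Blcap and Nnat. Usp29 held 6.54% to 15.1% of those on Usp29 and Peg3, with 15.1 ± 10.7% under C against 15.05% after MS for Tph2+/+, 7.05% against 10.3% for Tph2+/-, and 6.54 ± 3.00% against 8.45% for Tph2-/-. Tph2-/- C and Tph2+/+ C had 66.7 and 40.1 CPM of Peg3 and 4.51 and 5.16 CPM of Usp29. The share in Tph2-/- C minus that in Tph2+/+ C gave a difference of -8.51 percentage points with a two-sided exact permutation p of 0.0398. Without the libraries rich in Gm42418 the difference was -5.61 points and its exact permutation p was 0.12 (7 mice each). Without the 7 control mice named above it was -13.2 points with an exact permutation p of 0.0152, and with counts divided by exonic length -6.85 points with an exact permutation p of 0.0389. The difference over all mice was the only 1 of 35 comparisons with p below 0.05, and none had an adjusted p below 0.05 (smallest 0.9998), where the smallest p that 8 against 8 mice allow is 0.000155. In the two-sided exact test the largest shift of the Ube3a share was -2.43 points, for MS against C in Tph2-/- (p = 0.338).

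**Figure D5:**
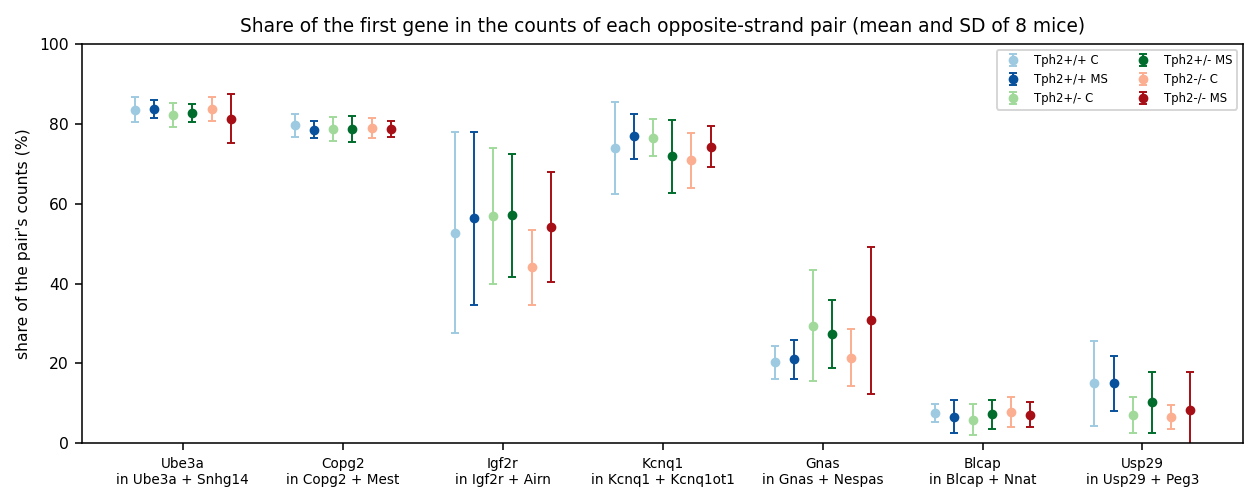
Share of the first gene in the counts of each of 7 opposite-strand pairs in percent, as mean and SD of 8 mice in each of 6 groups (colors). The shares of Ube3a and Copg2 lie within a few percentage points in all groups, while those of pairs with few counts, such as Igf2r with Airn, have wide error bars.

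Of 49 other imprinted genes, 9 (18.4%) passed the filter, against 6781 of 48439 genes in all. Of these 9, 2 (Zrsr1 and Cd81) were DEGs in Tph2+/- against Tph2+/+ under C (2.14 percent of all genes), 1 (Ppp1r9a) in Tph2-/- against Tph2+/+ under C (0.619 percent), 1 (Zrsr1) for MS in Tph2+/- (0.678 percent), and 1 (Zrsr1) was called for any difference between the groups (2.3 percent), with 0 in the other 6 comparisons. Zrsr1, a splicing factor gene inside an intron of Commd1, had 14.4 ± 5.49 CPM in Tph2+/- C and 23.4 ± 3.91 in Tph2+/+ C (lg2FC -0.65 ± 0.18, adjusted p = 0.283 in edgeR). In Tph2+/- it was 0.54 ± 0.18 higher in lg2FC after MS (21.9 ± 2.39 CPM, adjusted p = 0.9999). Cd81, a tetraspanin of the Kcnq1 cluster, had 42.4 ± 11.8 CPM in Tph2+/- C and 27.9 ± 7.29 in Tph2+/+ C (lg2FC 0.64 ± 0.20, adjusted p = 0.304). Ppp1r9a, an actin-binding protein of synapses, had 13.3 ± 6.59 CPM in Tph2-/- C and 5.40 ± 2.49 in Tph2+/+ C (lg2FC 1.27 ± 0.38, adjusted p = 0.999). The neuronal marker sum differed in the same direction, with 63.5 ± 15.1 CPM in Tph2-/- C and 41.1 ± 11.1 in Tph2+/+ C. Its part in the difference of Ppp1r9a was not tested. Zrsr1, Cd81 and Ppp1r9a did not pass the adjustment in any comparison.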

How the data were processed

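From stranded libraries of total RNA, read in pairs of 125 bases, the authors deposited raw counts per Ensembl gene, with no normalization. The submitters' processing notes name STAR, HTSeq and DESeq2, without versions, and GRCm38.p5. The annotation and the strand setting of the counting are not given in the sources used here. All 48 columns matched a mouse by its label. The 5 rows that name no gene were left out of library sizes. Genes were placed with GENCODE M21 (GRCm38).

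The study's thresholds for a DEG and its contrasts GE1 and GE2 were used, and Lars2 was removed, as its methods do. Counts of genes passing filterByExpr, which is stricter than the study's limit, were scaled by TMM and fitted in edgeR 4.0.16 (R 4.3.3) with 1 coefficient per group and the quasi-likelihood F test. DESeq2 1.42.0 was an alternative. The fit was tested on simulated counts. Shares within pairs were compared by two-sided exact permutation, and relations across mice by 100000 permutations. Relations were chosen after seeing the data. p-values were adjusted by Benjamini-Hochberg, and measure the spread between mice that may share litters. Python 3.11.15, NumPy 2.4.6, SciPy 1.17.1, pandas 2.3.3 and matplotlib 3.10.9 were used.

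Members and lists were chosen with earlier results of these data known. Named with values are members that passed the filter, lay in a pair, had a mean of at least 1 count or were called, the genes with exons opposite to theirs and a mean of at least 10 counts, and other imprinted genes called in a comparison.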

Additional observations from a re-analysis of the deposited data

Results flagged for a closer look

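Among 26 genes (14 imprinted genes and 12 opposite to them) in 6 groups of 8 mice each, 10 single values stood apart from the other 7 by Dixon's test, or 6.41% of the groups tested. Chance flags about 1 in 20 groups. The low value was Snhg14 in replicate 8 of Tph2+/- MS, with 572 CPM against a group median of 1071, and this mouse was also 1 of the 4 low in Ube3a. It was high in Gm44732 as well, with 113 CPM. The other high values were Kcnq1ot1 in replicate 4 of Tph2+/- MS with 72.3 CPM, Kcnq1 in replicate 5 of Tph2-/- MS with 125 CPM, Copg2 in replicate 2 of Tph2+/+ C with 1575 CPM, and Nnat in replicate 2 of Tph2+/- C with 128 CPM. Further high values were Gm27389 in replicate 2 of Tph2+/- C with 85.6 CPM and in replicate 4 of Tph2-/- C with 88.3 CPM, Gm18908 in replicate 4 of Tph2+/- C with 100.2 CPM, and 9330162G02Rik in replicate 5 of Tph2+/+ MS with 1718 CPM. The causes were not tested.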

How the results depend on the processing

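Of the recomputed counts of called imprinted genes or pair shares, 89 did not move and 14 did. Nnat in Tph2+/- against Tph2+/+ after MS stayed a DEG under all 10 alternatives, with a lg2FC from 0.34 to 0.36. When every gene with at least 1 count was tested (38 imprinted genes, the study's limit), 2 were called for any difference (Peg3 and Nespas, with 2 percent of all 32234 genes), 1 for GE1 (Copg2, 1.75 percent), 1 for GE2 (Peg3, 1.01 percent), 1 for MS in Tph2+/+ (Peg10, 1.57 percent) and 2 for MS in Tph2-/- (Peg3 and Nespas, 0.959 percent). Tph2-/- against Tph2+/+ gave 1 under C (Peg3, 0.89 percent) and 1 after MS (Nespas, 1.65 percent), and Tph2+/- against Tph2+/+ 2 under C (Copg2 and Nespas, 1.49 percent) and 3 after MS (Trappc9, Nnat and Nespas, 1.29 percent). DESeq2 without a prior called 1 for any difference (Peg13, 0.667 percent). Without the 7 control mice with the highest animal numbers, 1 was called for MS in Tph2-/- (Nespas, 0.908 percent) and 1 for Tph2-/- against Tph2+/+ under C (Peg3, 0.562 percent). Without the 4 libraries rich in Gm42418, 1 was called for Tph2+/- against Tph2+/+ under C (Copg2, 3.12 percent). With the replicate block 1 was called for MS in Tph2-/- (Peg3, 0.87 percent), and no other call changed. The replicate numbers do not pair the mice, since 120 pairs with the same number had a median correlation of 0.0045 (from -0.30 to 0.27) and 9 of 48 libraries were closest to their own number. The cause of these changes was not tested. Shares within pairs gave 0 adjusted calls under each alternative. Depth limits genes under a few counts, and 28 of the 42 were not tested.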
